A study of Mus musculus with 8 samples.

Results

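The Krüppel-like factors are zinc finger transcription factors, and 10 of their genes were examined here in Paneth cells sorted from mouse small intestine: Klf3, Klf4, Klf5, Klf6, Klf9, Klf10, Klf11, Klf13, Klf15 and Klf16. They were taken as the 10 rows, of 55414 gene IDs in the count table, whose Ensembl ID carries 1 of these symbols in GENCODE, and all 10 passed the filter on low counts, as did 11929 genes in all. The list was drawn up when results of the comparison between the genotypes were known, so that the values of the 10 genes in that comparison are given as a description, without a test. The remaining 16 genes of the Krüppel-like and Sp family were not on the list, and 7 of them passed the filter.

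RNA had been sequenced from purified Paneth cells, the granule-filled secretory cells at the crypt base, of transgenic mice carrying the genotype DT TG, in which Paneth cells express diphtheria toxin (TG, 4 libraries), and of wild type mice (WT, 4 libraries). Diphtheria toxin stops protein synthesis by inactivating an elongation factor. The title of the series places the profiling after depletion of mature Paneth cells. The mice of the study were C57BL/6J. No source used here names the promoter behind the toxin or the age of the animals, and no label says whether a library came from 1 mouse or from several. The study lists this series among its data sets and describes the samples of these sets as coming from individual mice, so the libraries are taken as separate mice on its word.

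All members of the family end in a block of zinc fingers that binds GC-rich and CACCC sequences, and they differ in the part before it, which recruits activators or repressors. Klf4, Klf5 and Klf6 mostly activate transcription. In the gut epithelium Klf4 is known from cells that have left the cell cycle, among them goblet cells, and Klf5 from dividing crypt cells. Klf3 represses through CtBP proteins, and Klf9, Klf10, Klf11, Klf13 and Klf16 repress through Sin3 proteins. Klf10 and Klf11 were first described as early genes induced by TGF-beta, while Klf9 and Klf15 are induced by glucocorticoids. Klf15 is best known for the control of amino acid breakdown.

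Total counts per library ranged from 13107397 to 16218434, and group means of the members ran from 58.5 counts per library (Klf11 in WT) to 1639 (Klf5 in TG). The 9 Paneth cell markers, with Lyz1 and Defa24 the most abundant, summed to 351500 to 530200 CPM (counts scaled to a common library size, with TMM factors) in WT and 370500 to 454800 in TG, so markers of the labelled cell type were abundant in each library. Defa24 shares near-identical sequence with other alpha-defensin genes, and its own count is uncertain. Of these markers 3 were called lower in TG by edgeR, Mptx2, Mmp7 and Ang4, which are named here after their values were seen. This is 33.3% of the list, against 17.9% of all tested genes called and 9.65% called lower. The goblet list, led by Spink4 and Muc2, summed to 10890 to 12660 CPM in WT and 8684 to 11990 in TG. Over all libraries, none of its 8 genes was called by edgeR (1 at an unadjusted p below 0.05, 0 called by DESeq2 or limma voom). By edgeR 1 goblet gene was called within the libraries with counts of Y-linked genes, and 1 within those without. The 4 stem cell markers, with Olfm4 and Smoc2 on top, summed to 1549 to 2226 CPM in WT and 1620 to 2355 in TG, and only Smoc2 was called, lower in TG. With scaling by total counts 0 stem cell markers were called, and 0 within either set of libraries split by counts of Y-linked genes. The enteroendocrine list (Chgb and Chga on top) summed to 5.43 to 32.9 CPM in WT and 0.456 to 9.47 in TG. The tuft list (Trpm5 and Dclk1 on top) summed to 21.2 to 45.3 CPM in WT and 19.3 to 62.3 in TG. Over all libraries, either list had 0 calls by edgeR, 0 genes at an unadjusted edgeR p below 0.05 and 0 calls by DESeq2. The 2 tested enteroendocrine genes had a median log2 fold change of -1.85. Within the libraries without counts of Y-linked genes, 1 enteroendocrine gene was called. Of 8 immune, endothelial and stromal markers, led by Ptprc and Pdgfra, 6 had under 3 counts in every library, among them Cdh5 with none, and the list summed to at most 0.743 CPM. The part of other cell types in the differences below was not tested.

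Klf10 and Klf11 were the 2 members with the largest differences between the genotypes. Their promoters are therefore shown, as the 250 bases before the start of the canonical transcript in GENCODE M39 on GRCm39. The Klf11 window lies at chr12:24701023-24701272 on the plus strand and the Klf10 window at chr15:38300960-38301209 on the minus strand. Both read 5′ to 3′ towards the gene, with capitals for GC boxes (GGGCGG on either strand) and for the E-box CACGTG.

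Klf11: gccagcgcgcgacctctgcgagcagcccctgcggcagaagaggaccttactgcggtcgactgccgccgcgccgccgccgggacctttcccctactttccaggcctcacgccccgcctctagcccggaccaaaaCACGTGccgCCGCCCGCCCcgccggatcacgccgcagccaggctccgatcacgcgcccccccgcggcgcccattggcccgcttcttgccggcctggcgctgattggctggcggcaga

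Klf10: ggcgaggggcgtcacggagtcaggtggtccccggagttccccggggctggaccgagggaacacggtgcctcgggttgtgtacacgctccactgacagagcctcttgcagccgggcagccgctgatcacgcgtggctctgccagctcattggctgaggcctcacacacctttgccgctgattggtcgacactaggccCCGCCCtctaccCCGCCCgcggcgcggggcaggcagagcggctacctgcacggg

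The Klf11 window held 2 GC boxes, which overlap each other, and 1 E-box just before them. The Klf10 window held 2 GC boxes close to the start site and no E-box. A GC box occurred in the promoters of 8 of the 10 members, against 36.4% of the 21627 protein-coding promoters of the same length. GC made up 46.4% of the Klf9 window, 69.6% in Klf10, 74.0% in Klf11 and 82.4% in Klf3, and the median over all promoters was 53.2%. CACGTG, the letters bound by clock and Myc-type factors, occurred in 4 members (Klf4, Klf6, Klf11 and Klf15) and in 6.29% of all promoters. CACCC, the core of the sites bound by this family itself, which can overlap a GC box, occurred in 4 members (Klf3, Klf5, Klf9 and Klf13) and in 53.0% of all promoters. TATAAA (11.9% of all promoters) and TGACGTCA (1.69%) were found in no member. These matches describe the letters only.

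Levels were compared between the members per kilobase of exon (RPKM, TMM-scaled), as shown in the plot of levels per exon length. In WT, Klf4 was highest at 20.5 ± 1.75 RPKM, followed by Klf5 at 18.5 ± 1.55 and Klf6 at 9.24 ± 0.843 (SD, n = 4 each). Klf4 was thus above 92.9% of the tested genes per exon length. The middle of the order was crowded. It ran from Klf9 at 6.49 ± 0.711 RPKM over Klf3, Klf15, Klf10 and Klf16 down to Klf13 at 3.96 ± 0.355 RPKM (SD, n = 4 each), and each neighbouring pair in it overlapped. Klf11 came last in WT at 0.951 ± 0.141 RPKM (SD, n = 4), above 26.3% of the tested genes. Of the 9 neighbouring pairs in the WT order, 6 overlapped in their library values, and the clear steps were those from Klf5 to Klf6, from Klf6 to Klf9 and from Klf13 to Klf11. This order and its steps hold for the union of exons as the length. With the longest transcript instead, Klf5 came before Klf4 in WT, at 28.4 against 20.9 RPKM, and Klf3 stood at rank 3 instead of rank 5, at 11.2 RPKM against 9.66 RPKM for Klf6. Klf11 was last with either length.

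**Figure D1:**
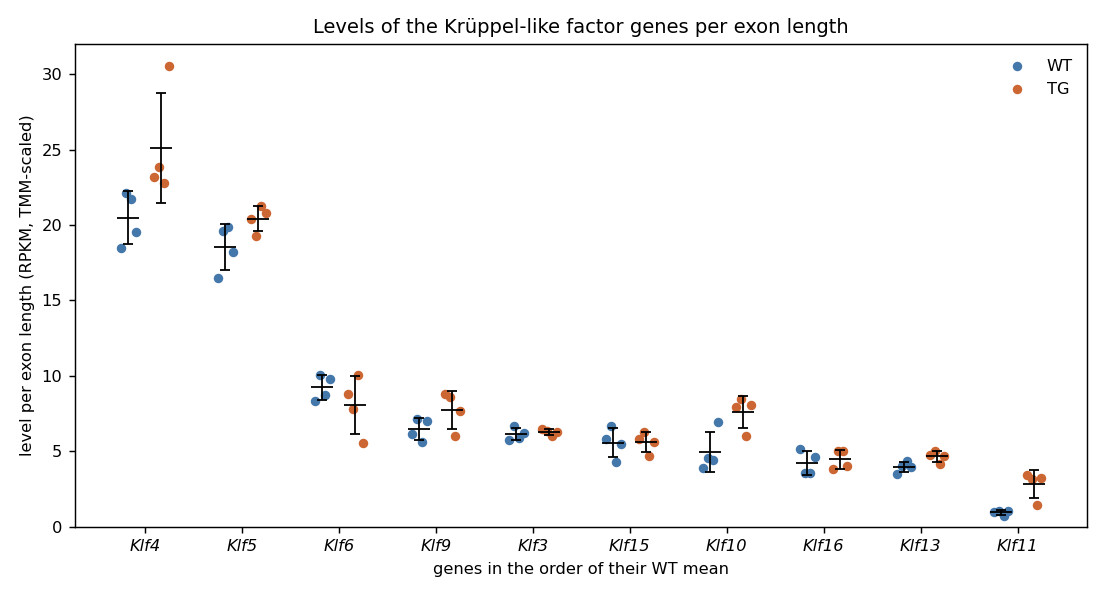
Levels of the 10 Krüppel-like factor genes per kilobase of exon (RPKM, TMM-scaled, y axis), in the order of their WT means (x axis). Points are libraries, horizontal marks are means and bars are SD (n = 4 per group). Klf4 and Klf5 lie above the others in both groups, and Klf11 lies lowest, at 0.951 RPKM in WT and 2.81 RPKM in TG.

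By union of exons, the TG order began with the same 3 genes, with Klf4 at 25.1 ± 3.64 RPKM and Klf6 at 8.05 ± 1.92 RPKM (SD, n = 4 each) around Klf5, whose libraries lay between 19.3 and 21.2 RPKM. Klf6 and Klf9 overlapped in TG, with Klf6 higher in 2 of 4 libraries. With the longest transcript, Klf6 was at rank 5 in TG and Klf3 at rank 3. By union of exons, Klf10 stood at rank 7 in WT and rank 5 in TG, at 7.61 ± 1.09 RPKM against 4.96 ± 1.35 in WT. In TG it overlapped both its neighbours, Klf9 and Klf3. Klf11 stayed at rank 10, at 2.81 ± 0.934 RPKM (SD, n = 4). Summed over the 10 members, the level was 80.5 ± 4.77 RPKM in WT and 92.8 ± 3.80 RPKM in TG (SD, n = 4 each).

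Setting TG against WT asks how sorted cells differ once mature Paneth cells have been depleted. Among all 11929 genes tested, 17.9% were called at an edgeR adjusted p below 0.05, 8.26% higher and 9.65% lower in TG. Of the 10 members, 2 were past this threshold with higher values in TG, Klf10 and Klf11, and 0 with lower values. The CPM ranges of TG and WT did not overlap for 2 members, Klf4 and Klf11, both higher in TG, against 22.0% of all tested genes (10% with TG above and 12% with TG below). Since the list was chosen on this comparison, nothing is read from these shares. For the same reason, whether a member passes the threshold in the fits below is a description and no test. The fitted fold change was above 0 for 9 members and below 0 for Klf6, and the median log2 fold change of the 10 was 0.19, against 0.01 over all tested genes. In bulk RNA, a different number of cells of a type and a different amount of RNA per cell cannot be told apart.

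**Figure D2:**
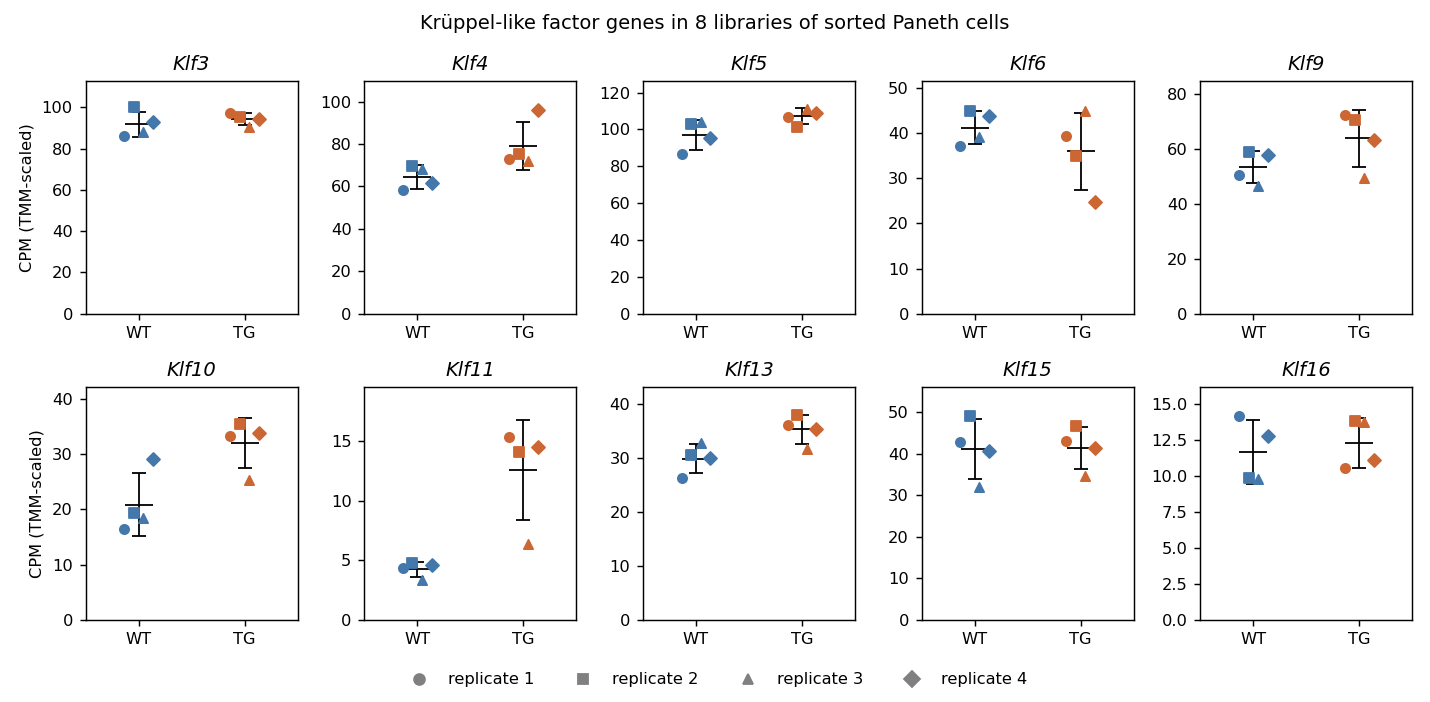
CPM (TMM-scaled, y axis) of each of the 10 genes in the 4 WT and 4 TG libraries (x axis). The marker shape gives the replicate number, horizontal marks are means and bars are SD. The groups are apart for Klf4 and Klf11, with TG replicate 3 the lowest TG library for Klf11 at 6.37 CPM, and they overlap for the other genes.

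Klf11 (ENSMUSG00000020653, chromosome 12, 24701273 to 24712913, plus strand), a Sin3-dependent repressor known from TGF-beta and metabolic control, had 4.31, 4.73, 3.34 and 4.61 CPM in WT replicates 1 to 4. In TG replicates 1 to 4 it had 15.4, 14.1, 6.37 and 14.5 CPM. Every TG library thus exceeded every WT library, and TG replicate 3 stood well below the other TG libraries. The log2 fold change was 1.56 ± 0.25 (SE), a 2.95-fold higher level in TG, and it ranked 88th from the top among the tested genes. WT libraries held 58.5 counts of it on average and TG libraries 187.5. Leaving out any 1 library moved the log2 fold change between 1.45 and 1.79, and Klf11 stayed past the threshold in all 8 of these fits.

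Klf10 (ENSMUSG00000037465, chromosome 15, 38291703 to 38300959, minus strand), the closest relative of Klf11, had 16.4, 19.3, 18.4 and 29.1 CPM in WT and 33.2, 35.5, 25.3 and 33.8 CPM in TG, in the order of the replicates. WT replicate 4 was the highest WT library and lay above TG replicate 3, so the groups overlapped. The log2 fold change was 0.61 ± 0.17 (SE), a 1.53-fold higher level in TG. With 1 library left out at a time, Klf10 was past the threshold without TG replicate 3 or WT replicate 4, the libraries that overlap. It was no longer past it without TG replicate 1, 2 or 4 or WT replicate 1, 2 or 3, where the log2 fold change lay between 0.52 and 0.60. An antisense gene, Gm35248, shares exon sequence with Klf10 and held 11 counts over the 8 libraries, against 3081 for Klf10.

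Other members with a Sin3-binding domain differed less. Klf9 (ENSMUSG00000033863, chromosome 19, 23118187 to 23148497, plus strand), which glucocorticoids and thyroid hormone induce, had 50.5, 58.6, 46.4 and 57.6 CPM in WT and 72.1, 70.4, 49.4 and 63.3 CPM in TG. TG replicate 3 was again the lowest TG library and fell within the WT range. The log2 fold change was 0.26 ± 0.12 (SE). Without TG replicate 3 it was 0.36, and of the 19 alternative fits only this one put Klf9 past the threshold. Klf13 (ENSMUSG00000052040, chromosome 7, 63536099 to 63588663, minus strand), known from T cells and heart, ranged from 26.2 to 32.6 CPM in WT and from 31.6 to 37.8 CPM in TG, with a log2 fold change of 0.24 ± 0.09 (SE). Klf16 (ENSMUSG00000035397, chromosome 10, 80402954 to 80413712, minus strand) ranged from 9.76 to 14.2 CPM in WT and from 10.6 to 13.9 CPM in TG, with a log2 fold change of 0.08 ± 0.15 (SE).

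Among the activators, Klf4 (ENSMUSG00000003032, chromosome 4, 55527139 to 55532528, minus strand) had 58.2, 69.7, 68.5 and 61.5 CPM in WT and 73.1, 75.1, 71.8 and 96.1 CPM in TG. All TG libraries lay above all WT libraries, but 3 of them by a small margin, while TG replicate 4 stood far above. The log2 fold change was 0.29 ± 0.10 (SE), and 0.18 without TG replicate 4. Of the 19 alternative fits, only that without a filter put Klf4 past the threshold. Klf5 (ENSMUSG00000005148, chromosome 14, 99536086 to 99552473, plus strand), its counterpart in dividing cells, ranged from 86.4 to 104.2 CPM in WT and from 101.1 to 111.3 CPM in TG, with a log2 fold change of 0.14 ± 0.09 (SE). Klf6 (ENSMUSG00000000078, chromosome 13, 5911481 to 5920393, plus strand), an early response gene, was the member with the lowest fold change, at -0.19 ± 0.15 (SE) on the log2 scale. Its TG libraries had 39.4, 34.9, 44.9 and 24.7 CPM, and replicates 2 and 4 lay below the WT range of 37.1 to 45.0 CPM. Klf6 thus had the widest relative spread in TG apart from Klf11, with an SD of 23.9% of the mean against 9.12% in WT.

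Klf3 (ENSMUSG00000029178, chromosome 5, 64959875 to 64990261, plus strand), the CtBP-dependent repressor, had the lowest relative spread of the members in both groups, with 86.3 to 100 CPM in WT and 90.5 to 97.3 CPM in TG and a log2 fold change of 0.04 ± 0.08 (SE). An antisense gene, Gm20033, shares exon sequence with it and held 41 counts against 10849. Klf15 (ENSMUSG00000030087, chromosome 6, 90438998 to 90452220, plus strand) had 42.9, 49.1, 31.9 and 40.6 CPM in WT and 43.1, 46.5, 34.6 and 41.2 CPM in TG. Replicate 3 was the lowest library in both groups, and the ranges overlapped. Its log2 fold change of 0.01 ± 0.13 (SE) changed sign in 4 of 19 alternative fits.

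**Figure D3:**
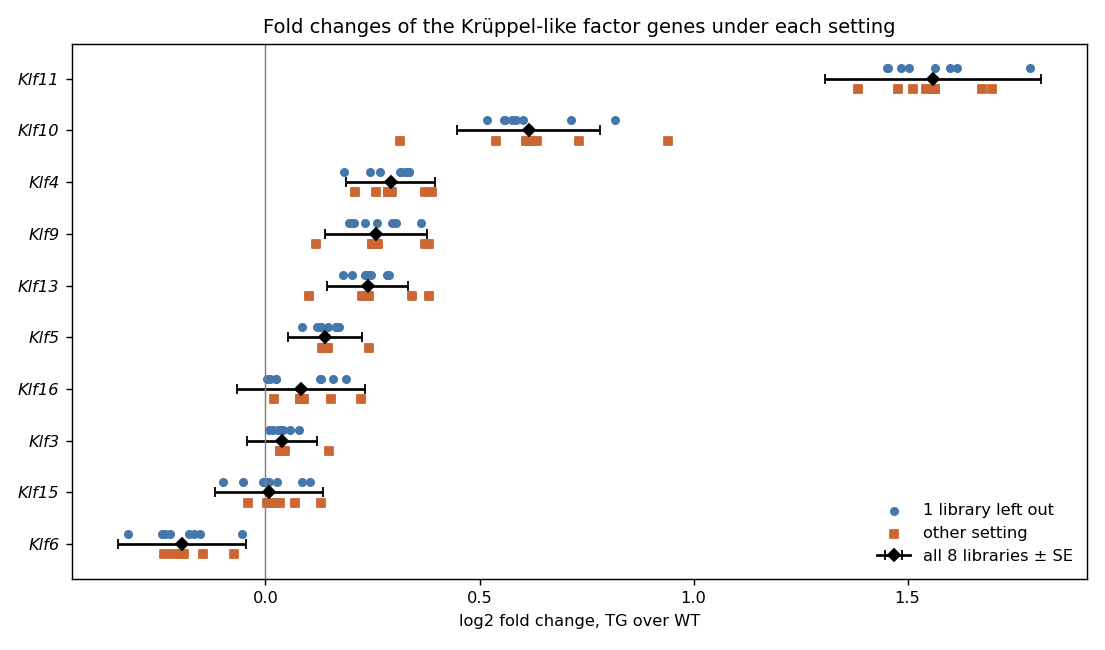
Log2 fold change of TG over WT (x axis) for the 10 genes (y axis). Black diamonds with bars are the values over all 8 libraries ± SE, blue points are fits with 1 library left out and orange squares are other settings. Klf11 keeps values between 1.38 and 1.79 throughout, Klf10 spreads from 0.31 to 0.94, and Klf15 lies on both sides of 0.

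Single libraries took part in these values. Within TG, replicate 3 was the lowest library for 7 of the 10 members (Klf3, Klf4, Klf9, Klf10, Klf11, Klf13 and Klf15), as for 23.5% of all tested genes, and the highest for Klf5 and Klf6. Within WT, replicate 1 was the lowest for 6 members and for 29.5% of all tested genes, and replicate 2 the highest for 6 members and for 24.8%. Scaling by total counts instead of TMM shifted the all-gene median from 0.01 to 0.12 on the log2 scale, and the share of calls that were higher in TG from 46.1% to 75%. The members' median moved from 0.19 to 0.29 under that scaling, and 9 of them lay above the all-gene median there, against 8 under TMM. Klf10 and Klf11 were past the threshold under both scalings.

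The libraries also differed by Y-linked counts, of which replicates 1 and 2 of both groups had none and replicates 3 and 4 had 897 to 1564. This split was balanced over the genotypes, but it cannot be told apart from any other difference between these replicates. For Klf10 the log2 fold change of TG over WT was 0.94 ± 0.15 without and 0.31 ± 0.23 with Y-linked counts (SE, 2 against 2 libraries on each side). Klf11 had 1.70 ± 0.21 without and 1.38 ± 0.39 with Y-linked counts (SE). The interaction was not called for any of the 10 members (0 at an unadjusted p below 0.05), while 0.0251% of all genes were called and 5.73% had an unadjusted p below 0.05. The interaction of Klf10 was -0.63 ± 0.29 on the log2 scale, with an edgeR adjusted p of 0.873, the smallest of the members. Within the libraries with Y-linked counts alone, 0 members were past the edgeR threshold and 2 had an unadjusted p below 0.05, and within those without, Klf10 and Klf11 were past it.

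The values of Klf15 lay apart by this split and not by the genotype. Libraries with Y-linked counts had 31.9 to 41.2 CPM and those without had 42.9 to 49.1 CPM, which do not overlap, as was the case for 1.67% of all tested genes. The log2 difference, with over without, was -0.29 ± 0.10 (SE), but it did not pass the correction over all genes (edgeR adjusted p of 0.677). None of the members was called in that comparison, which was chosen after the data were seen, 1 had an unadjusted p below 0.05, and 0.176% of all genes were called.

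Of the other Krüppel-like and Sp genes, which the choice of members did not use, 1 of 7 tested rose and 0 fell, and 6 were not called. The called share of 14.3% is near the 17.9% of all genes, and nothing is read from it. Klf12, a relative of Klf3 that also binds CtBP, rose from 8.01 ± 1.46 to 10.9 ± 0.257 CPM (SD, n = 4 each). All 4 TG libraries lay above all WT libraries, at a log2 fold change of 0.44 ± 0.14 (SE) and an edgeR adjusted p of 0.0445. With 1 library left out at a time, the call was kept without WT replicate 4 and lost in the other 7 fits. Klf7 had 9.43 ± 2.06 CPM in WT and 12.6 ± 2.79 CPM in TG (SD, n = 4 each), with an edgeR adjusted p of 0.134, and was called without TG replicate 4 or with no filter. Sp1, the founder of the Sp group, had 64.3 ± 9.37 and 74.6 ± 4.16 CPM (SD, n = 4 each), with a log2 fold change of 0.21 and an edgeR adjusted p of 0.165. Its relative Sp3 had 50.1 ± 0.475 and 50.6 ± 1.38 CPM (SD, n = 4 each), with an edgeR adjusted p of 0.913. On the log2 scale Sp2 differed by 0.09, Sp4 by 0.12 and Sp5 by 0.25, at edgeR adjusted p from 0.470 to 0.714.

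The remaining 9 family genes did not pass the filter. Klf2, the endothelial and lymphocyte member, had 84 counts over all libraries, and Klf1, the red cell member, had 19. Sp6 had 32 counts, Sp9 8, Klf8 6 and Klf17 2. Klf14, Sp7 and Sp8 had 0 counts in every library, which allows up to 0.240 CPM where the scaled library was smallest (3 counts, counting error only). The CtBP-binding group was thus represented by Klf3 and Klf12, and the Sin3-binding group by all its members but Klf14.

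Genes that work with the family were mostly not called. Of 14 cofactors and ubiquitin ligases, all tested, 1 rose, 0 fell and 13 were not called, a share of 7.14% against 17.9% of all genes, and the median log2 fold change was 0.00. Crebbp, a coactivator and acetyltransferase, rose from 22.4 ± 6.57 to 32.5 ± 2.14 CPM (SD, n = 4 each), with a log2 fold change of 0.53 ± 0.16 (SE) and an edgeR adjusted p of 0.0423. The call was kept in 1 of the 8 fits that left out a library, that without WT replicate 2, and was lost with the Y-linked counts as a covariate. Ctbp1, the most abundant of the list and the partner of Klf3, had 134.1 ± 5.84 and 128.2 ± 7.41 CPM (SD, n = 4 each).

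The TGF-beta list, of interest since TGF-beta induces Klf10 and Klf11, had 9 of 10 genes tested, of which 2 rose, 1 fell and 6 were not called, a called share of 33.3% against 17.9% of all genes. Ski, which holds back Smad proteins, rose from 26 ± 1.16 to 35.5 ± 2.37 CPM (SD, n = 4 each, log2 fold change 0.45 ± 0.09, edgeR adjusted p of 0.00380) and kept its call in all 8 fits that left out a library. Tgfbr2, the ligand-binding receptor, fell from 18.5 ± 1.29 to 13.8 ± 1.86 CPM (SD, n = 4 each), with a log2 fold change of -0.42 ± 0.12 (SE) and an edgeR adjusted p of 0.0226. Without TG replicate 1 or 2 it lost its call, at log2 fold changes of -0.34 and -0.40. Smad3, a signal carrier, rose with a log2 fold change of 0.25 ± 0.08 (SE, edgeR adjusted p of 0.0482). It lost the call with any library but WT replicate 2 left out, and also with no filter or with the Y-linked counts as a covariate. Smurf2, a ubiquitin ligase of the pathway, had 38.4 and 39.1 CPM in WT and TG. The median log2 fold change of the list was 0.08.

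Among 10 glucocorticoid-induced genes, 9 were tested, of which 2 rose, 2 fell and 5 were not called, a called share of 44.4% against 17.9% of all genes, at a median log2 fold change of 0.23. Sgk1, a kinase of sodium transport, had 1.44, 1.95, 2.47 and 3.35 CPM in WT and 4.25, 6.75, 4.45 and 7.22 CPM in TG. Every TG library lay above every WT library, at a log2 fold change of 1.29 ± 0.26 (SE) and an edgeR adjusted p of 0.00543, and the call was kept whichever library was left out. Tsc22d3, known as Gilz, rose by a log2 fold change of 0.36 ± 0.12 (SE, edgeR adjusted p of 0.0429). Among the fits with 1 library left out it kept its call without TG replicate 3 or WT replicate 4, and it lost it with limma voom and with the Y-linked counts as a covariate. Nfkbia, the inhibitor of NF-kB, and Cebpd fell, the former by -0.31 ± 0.08 and the latter by -1.03 ± 0.31 on the log2 scale (SE), at edgeR adjusted p of 0.0177 and 0.0332. Nfkbia lost its call without TG replicate 1 or 2, and Cebpd without TG replicate 1, 2 or 3 or WT replicate 1. Ddit4, the most abundant of the list, had 54.2 ± 3.46 and 46.3 ± 8.40 CPM (SD, n = 4 each) and was not called.

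Several Krüppel-like genes respond early to stimuli and to cell isolation, so 16 immediate early genes were examined beside them. Of 13 tested, 2 rose, 1 fell and 10 were not called, a called share of 23.1% against 17.9% of all genes, and the summed level was 621.5 to 830.2 CPM in WT and 610.4 to 805.1 CPM in TG. Nr4a1 rose from 7.66 ± 1.40 to 13.8 ± 3.33 CPM (SD, n = 4 each, log2 fold change 0.85 ± 0.18, edgeR adjusted p of 0.00610), and Myc rose by 0.32 ± 0.10 (SE) on the log2 scale (edgeR adjusted p of 0.0408). Atf3 fell, with -0.75 ± 0.22 (SE) and an edgeR adjusted p of 0.0286. Nr4a1 kept its call in all 8 fits without a library, Myc in those without WT replicate 1 or 2, and Atf3 in those without TG replicate 3 or WT replicate 1, 2 or 4. Jund, the most abundant, had 164.3 ± 24.9 and 136.2 ± 13.1 CPM (SD, n = 4 each) and was not called. The part of cell isolation in the values of Klf6 and Klf10 was not tested.

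Cell cycle genes, which Klf4 and Klf5 are known to control in opposite directions, had 1 of 10 rising, 0 falling and 9 not called, a called share of 10% against 17.9% of all genes. Ccnd2, cyclin D2, rose from 76.4 ± 7.23 to 108.6 ± 13.1 CPM (SD, n = 4 each, log2 fold change 0.51 ± 0.10, edgeR adjusted p of 0.00467), in all 8 fits that left out a library. Top2a, the most abundant, had 96.6 ± 20.7 and 104.8 ± 8.87 CPM (SD, n = 4 each). Of 9 genes of amino acid catabolism, the best known targets of Klf15, 8 were tested, 1 rose (12.5%, against 17.9% of all genes called) and 0 fell. This was Bckdha, a subunit of the branched-chain keto acid dehydrogenase, with 28.9 ± 4.37 and 41.0 ± 1.53 CPM (SD, n = 4 each, log2 fold change 0.51 ± 0.10, edgeR adjusted p of 0.00543), in all 8 fits that left out a library. Bcat2, which starts the same pathway, had 85.3 ± 10.5 and 84.0 ± 5.68 CPM (SD, n = 4 each). Klf5 and Klf15 themselves had log2 fold changes of 0.14 and 0.01. With scaling by total counts, Klf12, Crebbp, Tgfbr2, Smad3, Tsc22d3, Nfkbia, Cebpd, Myc and Atf3 lost their calls, and Ski, Sgk1, Nr4a1, Ccnd2 and Bckdha kept them.

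Enterocyte markers are given because Klf4 is known from enterocytes too. Of 12 tested, 6 rose, 0 fell and 6 were not called, among them Vil1 at a log2 fold change of -0.18, a called share of 50% against 17.9% of all genes. The median log2 fold change of the list was 1.94. DESeq2 called 9 of its genes, limma voom 4 and scaling by total counts 7, while 3 were called within the libraries with Y-linked counts and 7 within those without. Of the 6 that rose, Alpi is named after its values were seen. Alpi, the intestinal alkaline phosphatase, rose from 0.798 ± 0.668 to 4.74 ± 2.09 CPM (SD, n = 4 each), with an edgeR adjusted p of 0.00462. The whole list summed to 447.4 to 511.1 CPM in WT and 451.2 to 658.8 CPM in TG, most of it from Vil1, which Paneth cells also express, with Fabp2 next. Without Vil1, which was left out after its values were seen, the other 11 summed to 54.9, 58.6, 73.0 and 106.4 CPM in WT and 121.4, 152.4, 230.5 and 272.2 CPM in TG. TG replicate 4, the library with the most Klf4, was also the highest here. TG replicate 3, the TG library with the least Klf11, was next to it. The part of enterocyte RNA in the values of the members was not tested.

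**Figure D4:**
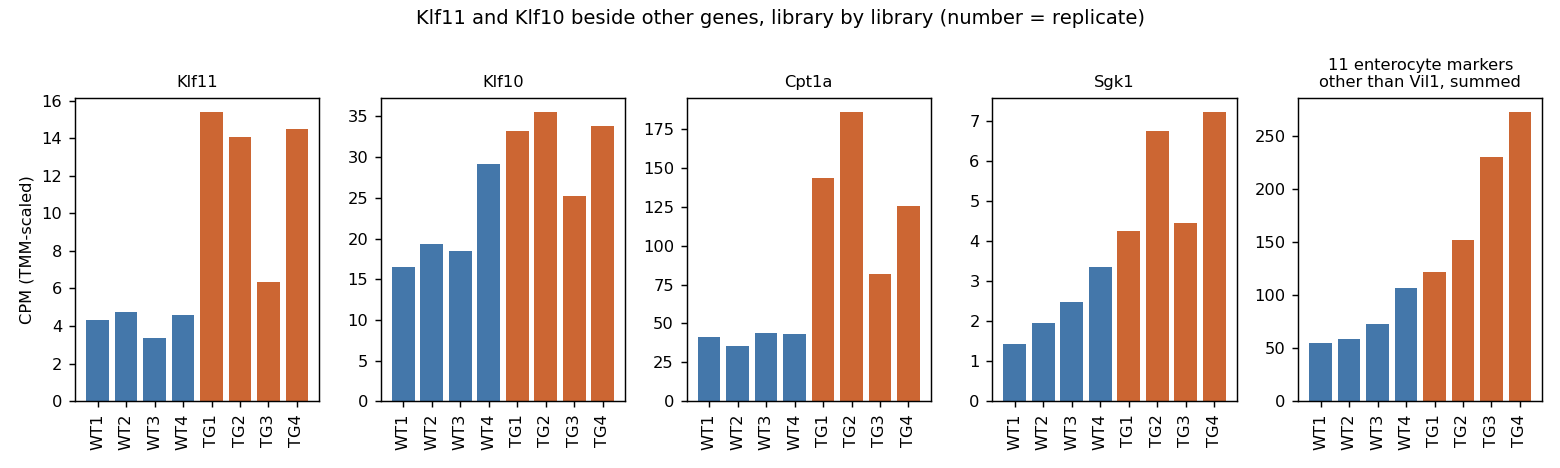
CPM (TMM-scaled, y axis) of Klf11, Klf10, Cpt1a, Sgk1 and the sum of 11 enterocyte markers in each library (x axis, WT in blue and TG in orange, the number being the replicate). TG replicate 3 has the lowest TG value for Klf11, Klf10 and Cpt1a. The enterocyte sum is 230.5 CPM in TG replicate 3 and highest in TG replicate 4. The part of enterocyte RNA in the other values was not tested.

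Cpt1a, which admits fatty acids to mitochondria, was set beside Klf11 library by library. It is on none of the gene lists and was picked with its higher values in TG known, so that its values are a description only. It had 41.1, 35.5, 44.0 and 43.1 CPM in WT and 143.4, 185.7, 82.0 and 125.2 CPM in TG. TG replicate 3 was the lowest TG library, as it was for 23.5% of all tested genes, so nothing is read from its being lowest for Klf11 and Klf10 too. It lay above all WT libraries for Cpt1a and Klf11. The order of the other TG libraries differed between Cpt1a and Klf11, with replicate 2 highest for Cpt1a and replicate 1 highest for Klf11.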

How the data were processed

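Raw counts per Ensembl gene ID, as deposited by the authors, formed 1 table for the 8 libraries. The submitters' processing notes name FastQC 0.12.0, STAR 2.7.0a, DESeq2 and the mm39 build, but which counter, strand setting and rule for shared reads gave the table was not given in the sources used here. GENCODE M39 on GRCm39 added symbols, positions and exon lengths to 54749 IDs, and the other 665 held at most 0.0150% of a library. No column was left out.

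Counts were fitted with edgeR 4.0.16 in R 4.3.3 (quasi-likelihood, robust, TMM factors, default filter by group, Benjamini-Hochberg adjustment over 11929 genes, threshold 0.05). Fold changes are TG over WT, and the SE is the fold change over the root of F. Alternatives were DESeq2 1.42.0, limma 3.58.1 (voom), other scalings and filters, a replicate block, the split by Y-linked counts and each library left out.

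The members, gene lists and tests were chosen with earlier results of these data known. Named are all members, all tested family genes and, per list, up to 4 called genes by p and the most abundant one, and Cpt1a. Libraries of a group never differed by less than 5.20 in chi-square per degree of freedom, which is more than counting error alone gives. This cannot tell whether libraries share a mouse, so counting each separately rests on the word of the study. The fit was tested on simulated data for TG against WT with 11929 genes: of 200 genes shifted up or down by 1 on the log2 scale, 84.5% were recovered, and 34.5% for a shift of 0.5. False calls made up 6.11% and 6.76% of the calls. These were 11 and 5 genes from a single run each, too few to set against the nominal rate. The simulation changed 200 genes, while 2136 were called in the data, so its rates need not hold there.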

Additional observations from a re-analysis of the deposited data

Results flagged for a closer look

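Over 34 groups of 4 libraries, for the 10 members and 7 further family genes, 3 held a library far from the others, where chance gives about 1.7. For Klf4 this was TG replicate 4, at 96.1 CPM, while its group otherwise lay between 71.8 and 75.1. For Klf11 it was TG replicate 3, at 6.37 CPM against 14.1 to 15.4 elsewhere in TG. For Sp1 it was WT replicate 1, at 50.2 CPM against 68.5 to 69.5 elsewhere in WT.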

How the results depend on the processing

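The comparison with and without Y-linked counts as a main effect was chosen after the data were seen, and the settings below were planned. The directions of Klf10, Klf11, Klf12, Klf7, Sp1, Alpi and every called gene of the companion lists held under all 19 alternatives.

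Members past the threshold, 2 in number, became 0 in the libraries with Y-linked counts (2 at an unadjusted p below 0.05) and 1 to 3 when 1 library was left out. Over all genes, 985 higher and 1151 lower, total counts gave 263 lower. The libraries with Y-linked counts gave 113 higher and 103 lower, while 500 and 638 were called in those lacking them. Across the fits with 1 library left out, 485 to 1045 were higher and 553 to 1183 lower, with TG replicates 1 and 2 lowering both counts by over 1.5 times.

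The count of other family genes, 1, was 2 with no filter and 0 with total counts (1 at an unadjusted p below 0.05), with Y-linked counts (0) or without them (3). Leaving out 1 library gave 0 to 1. Cofactors called, 1 in number, became 0 with total counts (2 unadjusted), the Y-linked covariate (3 unadjusted), and the libraries with (1) or without (0) Y-linked counts, and 0 to 1 without a library. Immediate early genes called, 3 in number, became 1 with total counts and in either set of libraries split by Y-linked counts, and 1 to 4 without a library. Glucocorticoid-induced genes called, 4 in number, became 1 with total counts, 0 with Y-linked counts (4 unadjusted), 2 without, and 1 to 4 without a library. TGF-beta genes called, 3 in number, became 1 with total counts and 0 with Y-linked counts (1 unadjusted), and 1 to 3 without a library. Cell cycle genes called, 1 in number, became 2 with limma voom and with the replicate block, 0 in either set (1 and 3 unadjusted), and 1 to 2 without a library. The count of amino acid genes, 1, was 2 with no filter, with DESeq2, the block and the Y-linked covariate, 0 in either set (3 and 2 unadjusted), and 1 to 2 without a library. Each set holds 2 libraries per group. For these changes the cause was not tested.

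Whether the replicate numbers pair the libraries could not be settled from the counts. Deviations of same-numbered libraries from their group means correlated across genes at 0.01, 0.06, 0.28 and 0.22. TG replicates 2, 3 and 4 each correlated best with the WT library of the same number. TG replicate 1, WT replicate 1 and WT replicate 2 each correlated better with another number. The presence of Y-linked counts followed the replicate number in both groups. With the replicate block, 2 members were past the threshold, Klf10 and Klf11, and the counts of cell cycle and amino acid genes became 2 each, while Cebpd and Smad3 lost their calls.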
